A study of Mus musculus with 4 samples.

Results

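Myl9 and 9 other genes of the actomyosin cytoskeleton, Myl6, Myh9, Myh10, Actb, Actg1, Acta2, Tagln, Tpm1 and Tpm2, were described in mouse embryonic stem cells with and without Chd1. They were taken as the loci that carry these symbols, and all 10 were found at 1 locus each among the 16553 loci of set 1 and the 16967 of set 2. Of 11728 genes named once in both sets, they make up 10. The genes were chosen by the measured change of Myl9, whose level in the Chd1-null library was about 2.19 times that of the control over both sets, and the others as its actomyosin partners. The values of Myl9 are therefore given as a description with no test, and the other 9 genes were tested. All 10 passed the filter on low values, a mean of at least 1 FPKM (fragments per kilobase of transcript, on the scale as deposited) over the 4 libraries.

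The cells carried Rosa26CreER, a Cre recombinase that tamoxifen activates, with a floxed and a null Chd1 allele, so the controls too had 1 functional allele. Per the labels' protocols, ethanol (control) or 1 µM tamoxifen (Chd1-null) was given for 48 to 72 h, and 3 to 5 passages followed in serum and LIF without the drug. There were 2 independently derived lines and 2 sets, each with 1 control and 1 Chd1-null library (n = 2 per group), and the labels do not say in words which line a set came from. RNA from equal numbers of viable cells received a mix of 92 ERCC transcripts before ribosomal RNA depletion, strand-specific library preparation and paired sequencing of 100 bases. Only the Chd1-null cells had received tamoxifen, so loss of Chd1 and past exposure to the drug cannot be told apart. The labels do not tie the libraries to separate cultures, so p-values measure only the spread between these libraries, which may be technical.

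Non-muscle myosin II is a motor of paired heavy chains, each with an essential and a regulatory light chain, that pulls on actin filaments. Phosphorylation of the regulatory light chain, by myosin light chain kinase among others, switches the motor on. Serum response factor (SRF) and its MRTF coactivators, which are held inactive by unpolymerised actin, drive many actin, tropomyosin and transgelin genes through a DNA element called the CArG box. In embryonic stem cells actomyosin is known for shaping colonies.

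The CArG box, searched on both strands, was taken as the sequence property that a group of SRF-driven genes would share. Only its strict form of 10 bases was counted, CC, then A or T alone, then GG. RefSeq promoter windows (GRCm38.p6), from 250 bases before to 50 bases after the start, were found for 8 of the 10 genes, all but Actb and Tagln. At least 1 window of Myl9, Actg1 and Myl6 held a match, so 3 of 8 genes had one, against 488 of 27025 genes (1.81%) in the whole table. The genes were chosen as actomyosin genes, a class that SRF is known to drive, so nothing is read from this share. No window of Myh9, Myh10, Acta2, Tpm1 or Tpm2 held the strict form, which says nothing of sites elsewhere or of looser forms. Forms with a base off were not counted, such as ccctatatgg in the window of Acta2 and ccatatatag in that of Tpm1. The 3 windows with a match are shown because Myl9 and Actg1 lie at opposite ends of the changes that follow, with the match in capitals. It lay 161 bases before the start in Myl9 (chr2:156775214-156775513, plus strand), 90 in Actg1 (chr11:120348446-120348745, minus strand) and 50 in the second of the windows listed for Myl6 (chr10:128492960-128493259, minus strand).
Myl9: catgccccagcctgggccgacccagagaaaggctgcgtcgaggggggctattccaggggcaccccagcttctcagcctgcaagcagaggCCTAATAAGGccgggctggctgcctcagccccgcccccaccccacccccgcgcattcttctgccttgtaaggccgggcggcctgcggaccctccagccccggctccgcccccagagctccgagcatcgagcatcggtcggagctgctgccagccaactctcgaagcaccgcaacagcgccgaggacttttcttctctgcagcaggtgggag
Actg1: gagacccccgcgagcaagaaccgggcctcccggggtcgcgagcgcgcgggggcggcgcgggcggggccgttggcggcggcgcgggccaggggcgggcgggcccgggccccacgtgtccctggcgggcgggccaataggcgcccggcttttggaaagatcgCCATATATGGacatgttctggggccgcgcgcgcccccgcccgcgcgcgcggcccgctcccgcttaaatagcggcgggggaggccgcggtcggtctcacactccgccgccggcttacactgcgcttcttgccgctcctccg
Myl6: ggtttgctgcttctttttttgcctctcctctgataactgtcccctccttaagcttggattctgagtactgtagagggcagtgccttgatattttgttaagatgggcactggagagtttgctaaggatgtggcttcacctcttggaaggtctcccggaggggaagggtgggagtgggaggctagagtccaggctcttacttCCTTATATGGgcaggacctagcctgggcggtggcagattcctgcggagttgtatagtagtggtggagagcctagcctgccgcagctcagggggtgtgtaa

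Chd1, an ATP-dependent chromatin remodeler, was read first as a check of the labels. It stood at 27.6 (control) and 5.71 FPKM (Chd1-null) in set 1 and at 17.9 and 8.52 in set 2, and it fell (log2 fold change -1.66, SE 0.25, limma adjusted p = 1.8e-08). All 14 embryonic stem cell markers looked at were listed in every library. Pou5f1 spanned 402.7 to 599.3 FPKM. Of the 14, 11 fell, where 9.80% of all genes tested did, and relative to all genes 0 did in limma (4 lower at an unadjusted p under 0.05). The largest falls were those of the pluripotency factors Klf4 (log2 fold change -1.23, limma adjusted p = 0.00016), Esrrb (-1.22, 1.9e-07) and Nanog (-1.17, 4.3e-08). FPKM summed to 584520, 466994, 719549 and 518032 in the same order of libraries, lower in both Chd1-null libraries. Among the 10261 genes tested the median log2 ratio was -0.46 in set 1 (quartiles -0.82 and -0.18) and -0.33 in set 2 (quartiles -0.56 and -0.10), a median fold of 0.755 over both. The change of each of the 10 genes is therefore also given relative to the set's own median, by subtracting that median first. Values as deposited are called absolute. In bulk RNA, fewer cells of a type and less RNA per cell cannot be told apart.

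Among the 10 genes, Myl9 alone was higher in Chd1-null cells by close to 2-fold or more in both sets. Actg1, a cytoplasmic actin, fell to 0.516 of its control level, and no other gene of the group passed limma's test in either direction, where 9.80% of all genes tested were called lower and 0.0682% higher. As deposited, Tpm2 was slightly higher in both sets, Myh9, Myh10 and Actb were lower in both (none of these in both sets relative to all genes), and Myl6, Acta2, Tagln and Tpm1 were higher in set 1 and lower in set 2. The plot of levels by library shows how far the genes stand apart in amount.

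**Figure D1:**
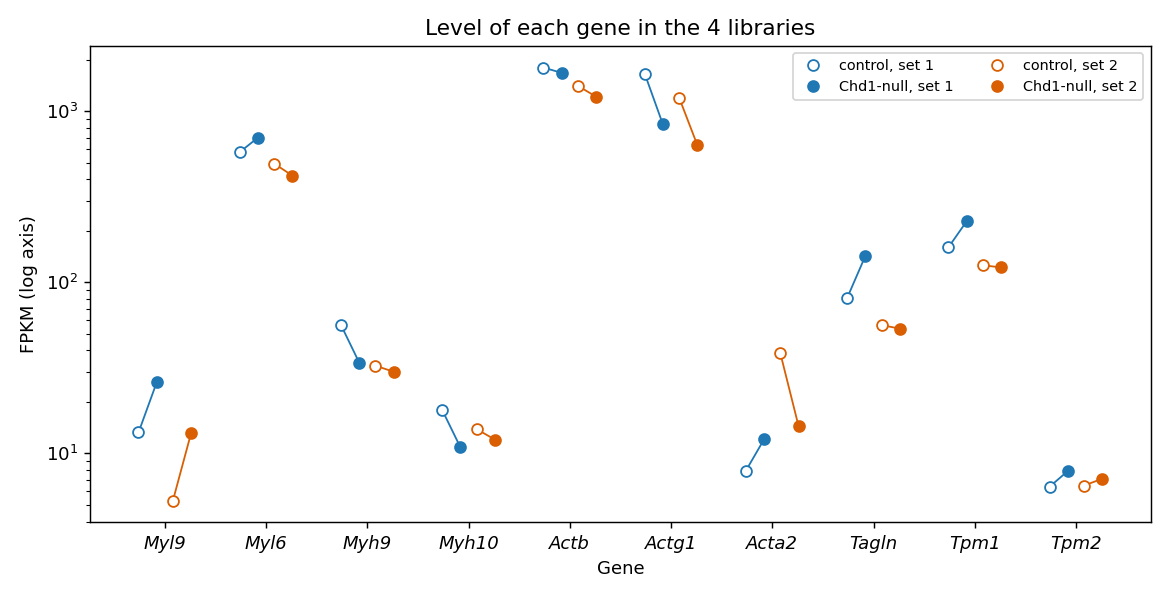
FPKM of each gene (log axis) in the 4 libraries, control and Chd1-null of set 1 and set 2, with 1 point per library. Actb lies between 1214 and 1796 FPKM and Tpm2 between 6.39 and 7.90. Actg1 is lower in both Chd1-null libraries than in either control, as are 52.6% of all genes tested. Myl9 is higher than the control of the same set in both sets.

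On the FPKM scale, which is per length, the mean level over the 4 libraries fell from Actb (1522 FPKM) through Actg1 (1081), Myl6 (547.3), Tpm1 (158.7), Tagln (83.4), Myh9 (38.2), Acta2 (18.2), Myl9 (14.4) and Myh10 (13.7) to Tpm2 (6.97). The ranges of neighbours in this order overlapped, except for Myl6 against Tpm1 and Myh10 against Tpm2. The 10 genes together took 0.748% of all FPKM in control 1 and 0.786% in Chd1-null 1. In set 2 they took 0.469% and 0.486%. The summed share thus differed more between the sets than between control and Chd1-null cells.

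Myl9 encodes a regulatory light chain of myosin II, best known from smooth muscle but also found in other cells. It stood at 13.2 (control) and 26.0 FPKM (Chd1-null) in set 1 and at 5.30 and 13.2 in set 2. The Chd1-null library was the higher in each set, but the groups overlapped, since control 1 (13.25 FPKM) lay slightly above Chd1-null 2 (13.16 FPKM). The ratios were 1.96 and 2.48, or 0.97 and 1.30 on the log2 scale (mean 1.13 ± 0.23, SD, n = 2 sets). Relative to all genes the log2 ratios were 1.43 and 1.63. An absolute increase in both sets was seen in 2.81% of genes tested, and these values chose Myl9, so nothing is read from that share.

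The other regulatory light chains of non-muscle cells, Myl12a and Myl12b, were deposited as a single merged locus. It stood at 145.2 (control) and 110.1 FPKM (Chd1-null) in set 1 and at 107.7 and 87.2 in set 2, ratios of 0.759 and 0.809. Myl9 and this locus thus went in opposite directions in both sets. Of the FPKM of Myl9 and the merged locus together, Myl9 made up 8.36% (control) and 19.1% (Chd1-null) in set 1 and 4.69% and 13.1% in set 2. The share was higher by 10.7 and 8.43 percentage points, and both Chd1-null libraries lay above both controls. No test is given, as Myl9 was chosen for its change. Myl9 and Myl12b share 86.3% of their coding bases (448 of 519, GENCODE release M21), so the first 60 coding bases are shown with the 11 that differ in capitals.
Myl9 coding start: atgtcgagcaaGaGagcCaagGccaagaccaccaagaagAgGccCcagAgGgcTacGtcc
Myl12b coding start: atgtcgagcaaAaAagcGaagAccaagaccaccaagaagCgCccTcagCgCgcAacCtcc
Although the genes are alike, no run of 100 bases of the Myl9 transcript, the length of a read, occurred in a transcript of another gene. The tissue-restricted light chain Mylpf, known from fast skeletal muscle, was also listed, at 197.6, 187.3, 190.1 and 87.5 FPKM (control 1, Chd1-null 1, control 2, Chd1-null 2). It fell (log2 fold change -0.60, SE 0.17, limma adjusted p = 0.0115), with the larger difference in set 2. This call was lost relative to all genes (log2 fold change -0.20, limma adjusted p = 0.998), with library-total scaling (limma adjusted p = 0.979) and with a filter of at least 5 FPKM (0.1003).

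Myl6 encodes the essential light chain that non-muscle and smooth muscle myosin II share. It was far more abundant than Myl9, at 576.3 (control) and 699.8 FPKM (Chd1-null) in set 1 and at 493.6 and 419.7 in set 2. The sets went opposite ways, with ratios of 1.21 and 0.850, and the groups overlapped. The log2 fold change was 0.02 (SE 0.18, limma adjusted p = 0.932), and relative to all genes it was 0.42 (limma adjusted p = 0.978). Of the 100-base runs of its transcript, 20.9% also occur in 5 other genes, whose share of the reads was not tested. Per 100 FPKM of Myl6 there were 2.30 FPKM (control) and 3.72 FPKM (Chd1-null) of Myl9 in set 1, against 1.07 and 3.14 in set 2. Neither of the essential light chain paralogs tested passed the test. Myl6b stood at 2.71, 1.28, 0.742 and 0.165 FPKM (limma adjusted p = 0.239) and Myl4 at 1.26, 0.994, 1.11 and 0.998 (limma adjusted p = 0.827).

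The heavy chains did not go the way of Myl9. Myh9, which encodes the motor chain of non-muscle myosin IIA, stood at 56.3 (control) and 33.9 FPKM (Chd1-null) in set 1 and at 32.6 and 30.0 in set 2. It was lower in the Chd1-null library of each set, mostly in set 1, and the groups overlapped. The ratios were 0.603 and 0.921 (log2 fold change -0.42, SE 0.19, limma adjusted p = 0.124). Myh10, the chain of non-muscle myosin IIB, stood at 17.9 (control) and 10.8 FPKM (Chd1-null) in set 1 and at 13.9 and 12.0 in set 2. Both Chd1-null libraries lay below both controls, a pattern seen in 52.6% of all genes tested. The ratios were 0.605 and 0.870 (log2 fold change -0.46, SE 0.24, limma adjusted p = 0.185). Both genes lay near the median of all genes, with relative log2 fold changes of -0.03 for Myh9 and -0.06 for Myh10.

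Myh14, the heavy chain of non-muscle myosin IIC, was the least abundant of these chains, at 7.04 (control) and 3.10 FPKM (Chd1-null) in set 1 and at 3.80 and 1.20 in set 2. It fell, to a log2 fold change of -1.37 (SE 0.43, limma adjusted p = 0.0227), but not relative to all genes (-0.98, limma adjusted p = 0.509) or with library-total scaling (limma adjusted p = 0.695). Myh9 made up 69.3%, 70.9%, 64.8% and 69.4% of the summed FPKM of the heavy chains Myh9, Myh10 and Myh14 (control 1, Chd1-null 1, control 2, Chd1-null 2). Its share was higher by 1.60 and 4.52 percentage points. Both Chd1-null libraries lay above both controls, but barely, with Chd1-null 2 at 69.4% and control 1 at 69.3%, and the controls differed from each other by more. A two-sided exact permutation test gave p = 0.333, the smallest that 2 against 2 libraries allow.

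The cytoplasmic actins parted from each other. Actb, which encodes beta-actin, stood at 1796 (control) and 1673 FPKM (Chd1-null) in set 1 and at 1405 and 1214 in set 2. As deposited it was slightly lower in each set, with ratios of 0.932 and 0.864 and overlapping groups (log2 fold change -0.16, SE 0.20, limma adjusted p = 0.580), and relative to all genes it was higher (0.24, limma adjusted p = 0.998). Actg1, which encodes gamma-actin, stood at 1656 (control) and 836 FPKM (Chd1-null) in set 1 and at 1198 and 633 in set 2. Both Chd1-null libraries lay well below both controls, where 52.6% of all genes tested had both below. The ratios were nearly equal in the sets, 0.505 and 0.528, and Actg1 fell (log2 fold change -0.95, SE 0.19, SD of the sets 0.05, limma adjusted p = 0.00014). The call of Actg1 ended where the fit took 1 common prior variance (limma adjusted p = 0.288) or no block for set (0.461), and no gene tested passed in either of those fits. Relative to all genes its log2 fold change was -0.56 (SE 0.33, limma adjusted p = 0.896), below the median in both sets (-0.53 and -0.59) but not past the test.

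Within a library the balance between the actins does not depend on how libraries were scaled to each other. Of the FPKM of Actb, Actg1 and Acta2, Actb made up 51.9% (control) and 66.4% (Chd1-null) in set 1 and 53.2% and 65.2% in set 2. The controls lay at 52.5 ± 0.902% and the Chd1-null libraries at 65.8 ± 0.812% (SD, n = 2 each), so the groups stood apart by far more than the spread within them. The difference was 14.5 percentage points in set 1 and 12.0 in set 2 (two-sided exact permutation p = 0.333, the smallest possible here). Per 100 FPKM of Actg1 there were 108.4 FPKM (control) and 200.2 FPKM (Chd1-null) of Actb in set 1, against 117.2 and 191.8 in set 2. The log2 ratio of Actb exceeded that of Actg1 by 0.88 and 0.71 (mean 0.80 ± 0.12, SD, n = 2 sets), a 1.74-fold shift.

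The actin genes are close copies, with 88.7% of coding bases identical (1000 of 1128). Their first 60 coding bases are shown because these encode the amino-terminal stretch where the proteins differ, with the 9 differing bases in capitals.
Actb coding start: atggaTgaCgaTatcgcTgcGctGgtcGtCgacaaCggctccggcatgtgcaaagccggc
Actg1 coding start: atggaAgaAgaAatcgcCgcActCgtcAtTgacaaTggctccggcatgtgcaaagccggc
Of the 100-base runs of the Actg1 transcript, 51.1% also occur in 6 other genes in GENCODE release M21, against 1.10% for Actb. None of those 6 is listed in the deposited tables (0 of 6). How the authors' processing placed reads shared with these copies is not given in the sources used here, so the level of Actg1 is uncertain, and the part of shared reads in its change was not tested. Acta1, the skeletal muscle actin, was near the bottom of the range, at 2.81, 1.89, 0.728 and 0.521 FPKM (limma adjusted p = 0.609).

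**Figure D2:**
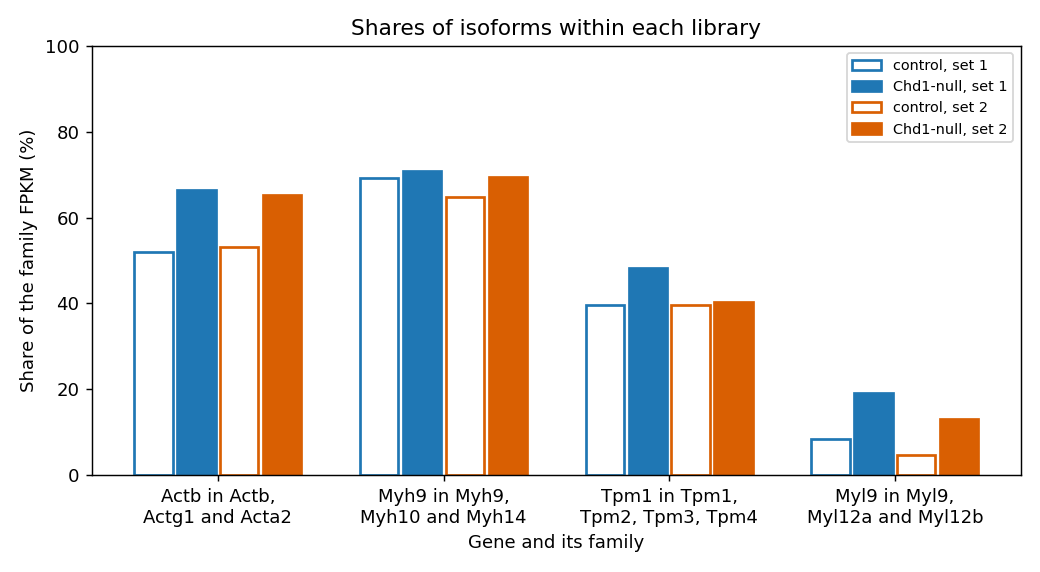
Share of each family's FPKM (%) taken by Myl9, Myh9, Actb and Tpm1 in the 4 libraries, with 1 bar per library. The share of Actb is 51.9% and 53.2% in the controls and 66.4% and 65.2% in the Chd1-null libraries, and that of Myl9 is 8.36% and 4.69% against 19.1% and 13.1%.

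Acta2 and Tagln encode smooth muscle alpha-actin and transgelin, an actin-binding protein, and both are textbook SRF targets. Acta2 stood at 7.93 (control) and 12.1 FPKM (Chd1-null) in set 1 and at 38.4 and 14.4 in set 2. The sets went opposite ways, and the 38.4 FPKM of control 2 stood far above the rest. The ratios were 1.53 and 0.376, or 0.60 and -1.41 on the log2 scale (mean -0.40, SD 1.42, n = 2 sets, limma adjusted p = 0.229). The SE of 0.23 that limma gave is far below that SD, because it came from the spread shared by genes of similar level. For Acta2, the relative log2 ratios were 1.06 and -1.08 (mean -0.0063, limma adjusted p = 0.998). Tagln stood at 81.0 (control) and 142.6 FPKM (Chd1-null) in set 1 and at 56.2 and 53.6 in set 2. It was higher in set 1 and close to level in set 2, with overlapping groups and ratios of 1.76 and 0.953 (log2 fold change 0.37, SE 0.17, limma adjusted p = 0.137). Relative to all genes the log2 ratios of Tagln were 1.28 and 0.26 (mean 0.77, SE 0.22, limma adjusted p = 0.110). Its close relatives Tagln2 (69.1, 58.3, 49.5 and 50.2 FPKM) and Tagln3 (2.38, 1.7499, 1.80 and 5.33 FPKM) did not pass the test (limma adjusted p = 0.654 and 0.412).

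Markers of cells that make much Acta2 and Tagln were read beside them. Of 22 fibroblast and feeder markers, 12 were listed in both sets, and these summed to 162.7 (control) and 152.5 FPKM (Chd1-null) in set 1 and to 231.2 and 176.1 in set 2. The sum was highest in control 2, as was Acta2. The collagen gene Col3a1 stood at 0.285, 0.313, 4.07 and 0.866 FPKM in the same order, and Col1a1 at 1.09, 0.564, 1.94 and 1.81. Of the 12, Sparc, Fn1, Fbn1, Loxl1 and Dcn were not highest in control 2. Dcn, too low to be tested, stood at 0.213, 1.07, 0.310 and 0.720 FPKM, higher in the Chd1-null library of each set, as Myl9 was. Most of the sum came from Vim (59.1, 60.01, 134.1 and 97.5 FPKM) and Sparc (52.7, 66.9, 64.3 and 50.5), which embryonic stem cells can also express. Of 7 fibroblast markers tested, 1 was called lower (9.80% of all genes tested were), Fn1, at 42.5, 17.7, 16.8 and 17.1 FPKM (limma adjusted p = 0.0414). Its log2 ratios were -1.25 and 0.02 (SD 0.90), so the call rests on control 1, and it was lost relative to all genes (limma adjusted p = 0.998). Of 10 smooth muscle markers, 4 were listed in both sets, and they summed to 9.07, 6.71, 11.7 and 8.46 FPKM. Among these Cnn1, calponin, stood at 2.36, 4.17, 3.93 and 3.11 FPKM and Des, desmin, at 0.839, 0.322, 3.48 and 2.15. None of the 3 smooth muscle markers tested passed in limma, with 1, Smtn, at an unadjusted p under 0.05. Myh11, the defining myosin of smooth muscle, was not analysed here. The part of such cells in the levels of Acta2, Tagln and Myl9 was not tested.

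**Figure D3:**
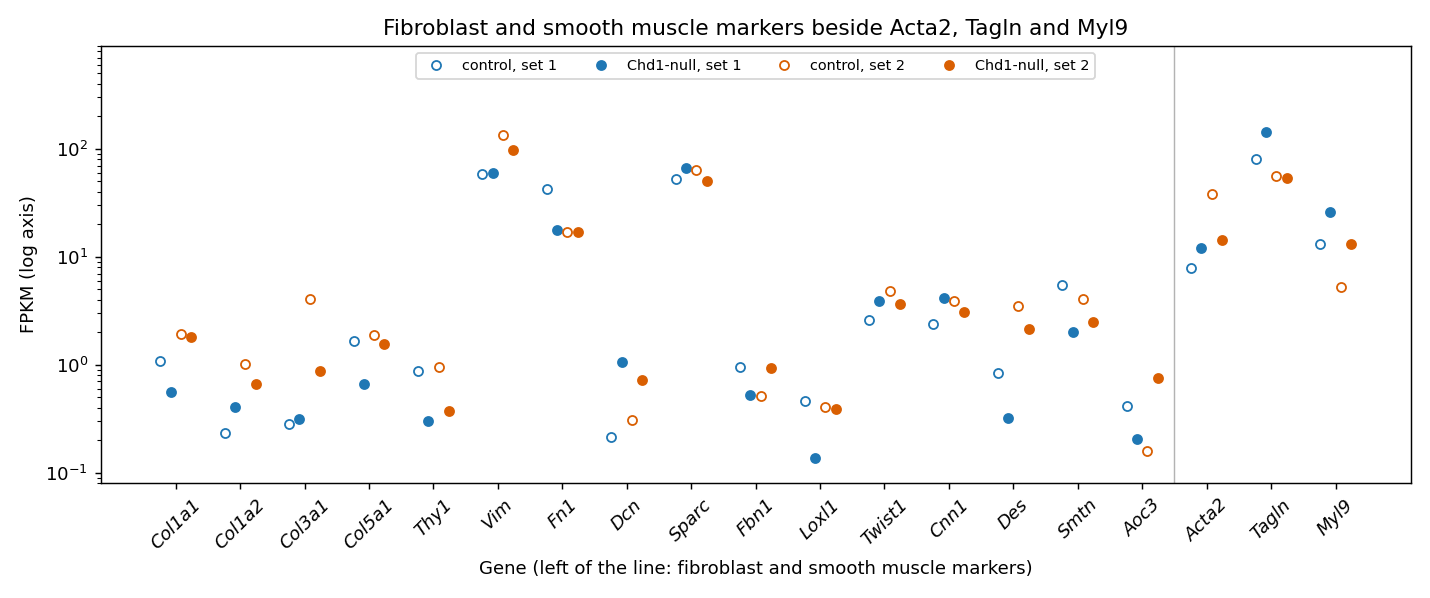
FPKM (log axis) of the fibroblast and smooth muscle markers listed in both sets, left of the line, beside Acta2, Tagln and Myl9, with 1 point per library. Col3a1 and Acta2 are both highest in control 2, at 4.07 and 38.4 FPKM, whereas Myl9 is lowest there, at 5.30. The markers Sparc, Fn1, Fbn1, Loxl1 and Dcn are highest in other libraries.

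Tropomyosins lie along actin filaments and set which myosins and severing proteins can bind. Tpm1 stood at 159.96 (control) and 227.0 FPKM (Chd1-null) in set 1 and at 125.8 and 122.0 in set 2. As with Tagln, the difference was in set 1, and the groups overlapped. The ratios were 1.42 and 0.970 (log2 fold change 0.23, SE 0.17, limma adjusted p = 0.333), and relative to all genes the log2 fold change was 0.63 (limma adjusted p = 0.466). Tpm2 stood at 6.39 (control) and 7.90 FPKM (Chd1-null) in set 1 and at 6.49 and 7.11 in set 2. Both Chd1-null libraries lay above both controls, as in 0.867% of genes tested, but the difference was small (ratios 1.24 and 1.10, log2 fold change 0.22, SE 0.30, limma adjusted p = 0.610). Its log2 fold change relative to all genes was 0.61 (limma adjusted p = 0.722). Tpm3 (169.5, 147.0, 120.2 and 109.7 FPKM) and Tpm4 (68.2, 87.7, 65.1 and 62.7 FPKM) did not pass the test either (limma adjusted p = 0.477 and 0.527). Tpm1 made up 39.6% of the FPKM of the tropomyosins Tpm1 to Tpm4 in both controls, 48.3% in Chd1-null 1 and 40.5% in Chd1-null 2 (two-sided exact permutation p = 0.333, the smallest possible here).

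**Figure D4:**
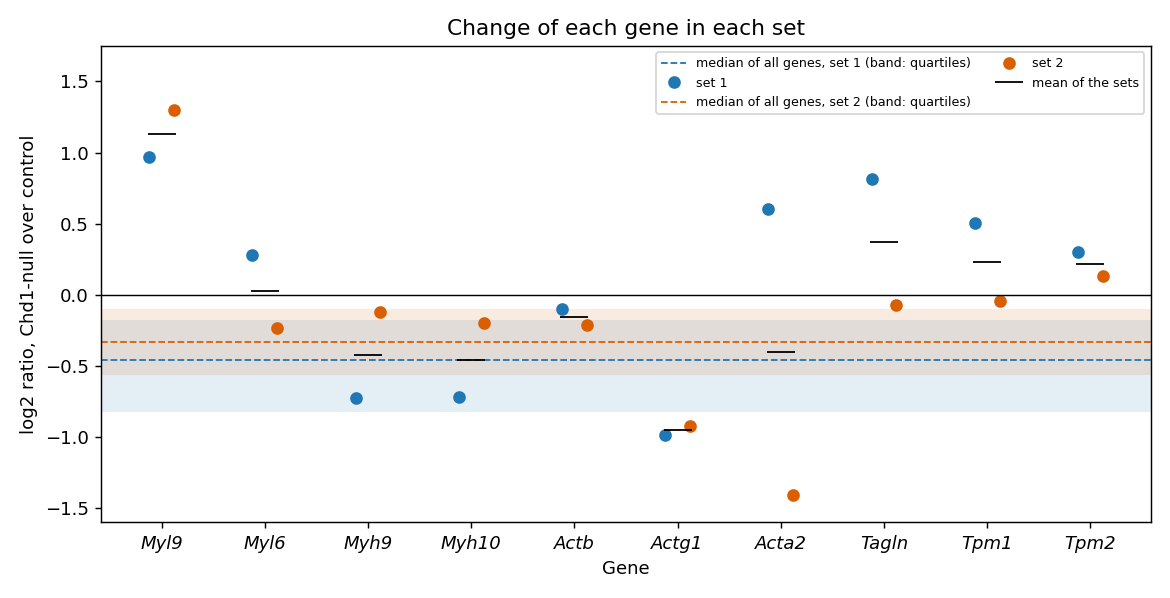
log2 ratio of Chd1-null over control FPKM for each gene in set 1 and set 2, beside the median of all genes tested in each set (-0.46 and -0.33). Myl9 and Tpm2 are above 0 in both sets, Actg1 lies near -0.95 in both, and Acta2 is at 0.60 in set 1 and -1.41 in set 2.

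Myl9 is left out of the counts that follow, since its change chose the group. Counted as deposited, 5 of the 9 other genes were higher in Chd1-null cells in set 1, where 12.7% of all genes tested were, and 1 in set 2, where 17.6% were. Higher in both sets was 1, Tpm2 (all genes, 2.81%), and lower in both were 4 (all genes, 72.4%). The 4 that were higher in set 1 and lower in set 2 compare with 9.94% of all genes. By the limma test, 0 of the 9 genes other than Myl9 were called higher and 1, Actg1, was called lower. At an unadjusted p under 0.05 there were 1 higher, Tagln, and 2 lower, Actg1 and Myh9. Of all genes tested, 0.0682% were called higher, 9.80% lower and 9.87% in either direction, so 1 of 9 is close to the background. The median log2 fold change of the 9 genes was -0.16, against -0.41 for all genes.

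Relative to each set's median, 6 of the 9 genes were higher in set 1 and 7 in set 2, with 50% of all genes above it in each by construction. Both ratios were above the median in 5 genes (all genes, 24.6%) and below it in 1, Actg1 (all genes, 24.6%). The other 3 went opposite ways in the sets, Myh9 and Myh10 below the median in set 1 alone and Acta2 in set 2 alone. Higher in set 1 and lower in set 2 on this scale were 25.4% of all genes. In limma 0 of the 9 genes passed in either direction (3 higher, Tagln, Tpm1 and Tpm2, and 0 lower at an unadjusted p under 0.05), while 0.146% of all genes were called higher, 0.214% lower and 0.361% in either direction. Dividing each library by its own FPKM total moved the all-gene medians to -0.14 and 0.14 and the calls from 7 higher and 1006 lower to 50 higher and 37 lower. On that scale Tagln (log2 fold change 0.77, limma adjusted p = 0.00032) and Tpm1 (0.63, limma adjusted p = 0.0038) passed as higher, Actg1 (-0.55, limma adjusted p = 0.0467) passed as lower, and Actb was at 0.24. As deposited, Tagln and Tpm1 were higher in set 1 alone. The SDs of their set log2 ratios there, 0.63 and 0.39, exceeded limma's SE of 0.17 for each. The mean log2 fold change of Actb changed sign with the scaling, and those of the other 9 genes kept their sign under the absolute, relative and library-total scales.

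Genes that act on or with actomyosin were read from 5 lists, of which 4 are described below, and 25 of the 145 tested passed the limma test, all as lower. Relative to all genes 0 of them passed (7 higher and 7 lower at an unadjusted p under 0.05 in limma). Of the paralogs of the 10 genes, 9 of 22 were tested, and Mylpf and Myh14 fell, with the others given above (median log2 fold change -0.22). Of SRF, its MRTF coactivators and their known targets, 33 of 42 were tested, and 0 rose and 2 fell (6.06%). Their median of -0.42 lay beside that of all genes, -0.41.

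Among the SRF list, the genes that fell were Ier2, an immediate-early gene, and Mcl1, an anti-apoptotic gene, both named after their values were seen. Ier2 stood at 77.5, 45.5, 79.2 and 37.1 FPKM (log2 fold change -0.93, limma adjusted p = 4.8e-05) and Mcl1 at 234.5, 166.3, 293.4 and 195.9 (log2 fold change -0.54, limma adjusted p = 0.0248), in the order control 1, Chd1-null 1, control 2, Chd1-null 2. Neither encodes a part of the contractile apparatus. Srf itself stood at 9.63, 8.91, 9.10 and 7.81 FPKM (limma adjusted p = 0.671), so its groups did not overlap but lay close. Both Chd1-null libraries were below both controls in 52.6% of all genes tested. The MRTF genes Mkl1 (1.78, 0.644, 2.15 and 1.59 FPKM) and Mkl2 (3.15, 1.03, 1.80 and 2.204 FPKM) did not pass (limma adjusted p = 0.323 and 0.416). The largest changes of the list with 1 sign in both sets were those of the integrin Itga5 (log2 fold change -1.29, limma adjusted p = 0.0617), smoothelin, Smtn (-1.05, limma adjusted p = 0.0830), and the LIM protein Fhl2 (-1.04, limma adjusted p = 0.0646), none past the test. CArG matches stood in the promoter windows of 8 of the 34 listed SRF genes that have an entry (23.5%).

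Of the genes of actin nucleation and turnover, 32 of 35 were tested, and 0 rose and 6 fell (18.8%, median -0.44). Coro1b, a coronin, stood at 25.3, 13.1, 29.8 and 13.0 FPKM (log2 fold change -1.07, limma adjusted p = 0.00019), and Wasf2, an activator of the Arp2/3 complex, at 12.4, 4.08, 10.5 and 7.75 (log2 fold change -1.004, limma adjusted p = 0.0133). Of the crosslinking and focal adhesion genes, 40 of 41 were tested, and 0 rose and 7 fell (17.5%, median -0.49). The alpha-actinins Actn1 (40.7, 18.7, 20.2 and 18.1 FPKM, limma adjusted p = 0.0309) and Actn4 (81.2, 31.9, 38.7 and 33.5 FPKM, limma adjusted p = 0.0020), named after their values were seen, were lower mainly in set 1. The adhesion gene Parvb had the largest change of the list, with 3.82 (control) and 0.40004 FPKM (Chd1-null) in set 1 and 1.08 and 0.503 in set 2, and did not pass (limma adjusted p = 0.0670). The shares called in these lists stand beside the 9.80% of all genes called lower. With a filter of at least 5 FPKM, the number of list genes called lower was 3 in place of 25, and with library-total scaling it was 0.

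**Figure D5:**
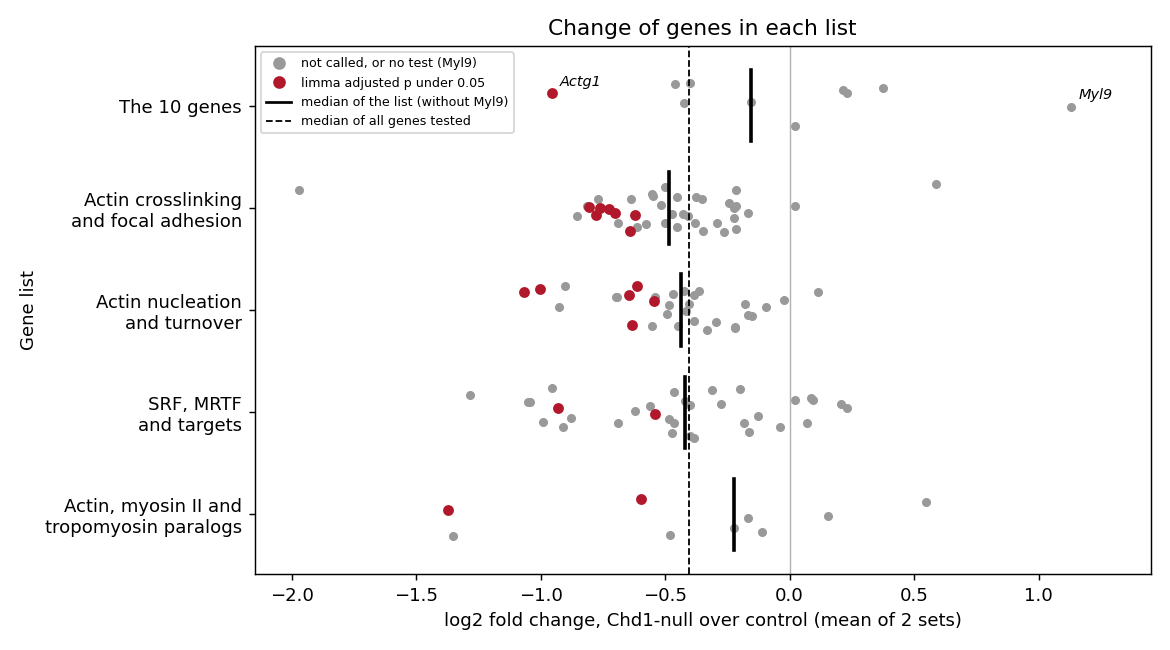
log2 fold change (mean of 2 sets) of every tested gene in 4 lists and of the 10 genes, with 1 point per gene and the median of each list (without Myl9), beside the median of all genes tested (-0.41). Myl9, whose rise chose the group, is at 1.13, and the medians of the 4 lists lie between -0.49 and -0.22.

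The genes whose pattern over the 4 libraries was most like that of Myl9 were taken by the smallest Euclidean distance between centred log2 profiles, among other genes with an established name and a mean of at least 5 FPKM. They were Nhej1, a DNA end-joining factor (distance 0.474), Mrpl52, a mitochondrial ribosomal protein gene (0.703), Gpatch2 (0.761), Folr1, a folate receptor gene (0.849), and Endog, a mitochondrial nuclease gene (0.913). Nhej1 stood at 11.2 (control) and 18.3 FPKM (Chd1-null) in set 1 and at 5.83 and 10.3 in set 2. Mrpl52 stood at 49.0, 75.2, 28.6 and 65.3 FPKM in that order, Folr1 at 71.0, 120.0, 53.5 and 72.7, and Endog at 10.3, 17.2, 8.20 and 12.3. Gpatch2, at 18.0, 18.2, 4.99 and 9.55 FPKM, was level in set 1 and higher in set 2 alone. The distance also takes in differences in level between the sets, so a small one need not mean a rise in both. None of the 5 is an actomyosin gene of the lists. Of the 9 other genes of the group, Tagln came nearest, in place 43 of the 10260 other genes tested (distance 0.986), then Tpm1 in place 100 (1.13) and Myl6 in place 336 (1.36), while Actg1 was in place 7171 and Acta2 in place 9897. The median distance of all genes was 2.00. With 4 libraries, the order is a description.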

How the data were processed

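Per the labels' protocols, RNA-seq was made from 4 libraries of mouse embryonic stem cells. The deposited values, 1 table per set, were taken as FPKM because of the tools (Cufflinks 2.2.0, Cuffdiff, TopHat2 2.0.10, TopHat) and build (mm9) listed in the submitters' processing notes. What each tool did, and whether the ERCC mix set the scale, is not given in the sources used here, and read depth is unknown. The deposited ratio equalled the quotient of its FPKM columns within 4.97e-06. Loci below 0.100 FPKM were not analysed here, and those without a symbol, merged or repeated were left out of the joint fit.

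Log2(FPKM + 0.1), which understates the change of low genes, was tested with limma 3.58.1 (R 4.3.3, eBayes with a variance trend, two-sided, Benjamini-Hochberg adjustment at 0.05) on 10261 genes, with set as a block and 1 residual degree of freedom. Set was a block since the sets were deposited apart and 2 lines are described, and same-set deviations correlated (r = 0.483). The prior degrees of freedom were infinite, so SEs and p-values rest on the spread shared by genes of similar level. Only the relative fit was tried on simulated data, with results not reported here, so the absolute calls have no such check. The naming rule took the 10 genes, the tested paralogs, for each list the 3 genes at most that moved furthest with 1 sign in both sets, the 5 nearest to Myl9 and Chd1. The genes and lists were chosen with earlier results of these data known. Alternatives covered the pseudocount, the filter, the variance model, the block, scaling, level trend, repeated symbols and each set alone. Exact permutation tests compared shares. Promoters came from RefSeq (GRCm38.p6) and transcripts from GENCODE release M21, and no coordinates of the authors' build are given. The values of 1 gene list are not reported here.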

Additional observations from a re-analysis of the deposited data

Results flagged for a closer look

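In 4 of the 10 genes the sets moved opposite ways, higher in Chd1-null cells in set 1 and lower in set 2, and the difference between the sets was not tested because each has 1 library per group. The log2 ratios were 0.28 and -0.23 for Myl6, 0.60 and -1.41 for Acta2, 0.82 and -0.069 for Tagln, and 0.50 and -0.044 for Tpm1. The pattern was seen in 9.94% of all genes tested. Acta2 had the widest gap, and control 2 alone held 38.4 FPKM of it.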

How the results depend on the processing

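As deposited, 7 genes were called higher and 1006 lower. These counts became 4 higher with a pseudocount of 1, 2 and 225 with a mean of at least 5 FPKM, 50 and 37 with library totals, and 3 and 644 with the level trend removed. They became 0 and 0 with 1 common prior variance (limma, lowest adjusted p 0.288, 1718 genes at an unadjusted p under 0.05) and 0 and 0 with no replicate block (lowest adjusted p 0.461, 1043 genes). The call of Actg1 ended in these last settings, so members called lower went from 1 to 0. With library totals 2 members, Tagln and Tpm1, were called higher in place of 0. Other genes of the pathway lists called lower went from 25 to 3 with a mean of at least 5 FPKM and to 0 with a common prior variance, with no replicate block and with library totals, where 1, Tpm4, was called higher (limma adjusted p = 0.0471). Relative counts of 15 and 22 became 2 and 3 with a mean of at least 5 FPKM, and 0 and 0 with a common prior variance (lowest adjusted p 0.0731, 614 genes) or no replicate block (1.00, 154 genes).

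With library totals the mean log2 fold change turned to 0.24 for Actb, 0.14 for Myl4 and for the median of the paralogs, 0.23 for Tpm3, 0.29 for Tagln2, 0.23 for Srf and 0.071 for Pou5f1. Removing the level trend turned Myl6 to -0.070. On the relative scale Acta2 turned to 0.0012 with no filter and to 0.026 with no replicate block, and Myh9 to 0.0039 with no replicate block. The values of the sets taken alone ran from -0.23 to 0.28 for Myl6, -0.069 to 0.82 for Tagln, -0.044 to 0.50 for Tpm1, -1.41 to 0.60 for Acta2, -0.053 to 0.36 for Tpm4, -0.25 to 0.021 for Tagln2, -1.52 to 0.28 for Mkl2 and -0.42 to 1.52 for Tagln3, and relative ones from -0.27 to 0.21 for Myh9, -0.26 to 0.13 for Myh10 and -1.08 to 1.06 for Acta2. The cause of these changes was not tested. The shares within families kept their direction in each set. Of 160 other values of the 10 genes under alternatives, 150 kept their direction and, where tested, their side of the threshold. They include values of Myl9, which had no test and whose rise chose the group. Nothing is read from the count for Myl9. With 2 pairs, the precision in the main fits came from the spread between sets shared by genes of similar level, not from each gene's own. Without counts no counting error can be given.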

Other observations

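Beside the actomyosin genes, the intermediate filament genes of simple epithelia, Krt8 and Krt18, differed more between the sets than between genotypes. Krt18 stood at 153.3 (control) and 78.8 FPKM (Chd1-null) in set 1 and at 33.8 and 18.4 in set 2, and it fell (log2 fold change -0.92, SE 0.18, limma adjusted p = 8.5e-05), but not relative to all genes (-0.52, limma adjusted p = 0.618). Its partner Krt8 stood at 132.8, 69.9, 12.9 and 11.9 FPKM in that order and did not pass (log2 fold change -0.52, SE 0.19, limma adjusted p = 0.0570). Both genes were higher in each library of set 1 than in either library of set 2.

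Of 18 primitive endoderm and mesendoderm markers, a list that holds both keratins, 9 were listed in both sets and 4 were tested, of which 1, Krt18, fell, where 9.80% of all genes tested did. Relative to all genes 0 of the 4 fell in limma (1 at an unadjusted p under 0.05). The 9 summed to 299.6 (control) and 160.1 FPKM (Chd1-null) in set 1 and to 59.4 and 44.1 in set 2. Most of each sum came from Krt8 and Krt18, so it mainly describes the keratins. The other tested markers were Otx2, at 7.55, 9.02, 8.33 and 8.27 FPKM in that order, and Fgf5, at 0.951, 0.133, 1.63 and 2.03. Gata6, Sox17 and Foxa2 were not analysed here.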
